A study of Drosophila melanogaster with 36 samples.

Results

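Of the 9 libraries made from fly heads, 3 held transcripts of a subset of digestive enzymes at levels above those of abdomens, and the other 6 held traces of them. The 3 heads, called gut-positive here, were those in which alphaTry (FBgn0003863, 2R:11344260-11345119, BDGP6), a trypsin gene of the midgut, reached at least 500 counts per 1000000 counts of the library (CPM). They were virgin 1 (2857 CPM), M1 (885 CPM) and M2 (2200 CPM). The heads just inside and just outside the threshold were M1 at 885 CPM and P2 at 18.9 CPM, and the remaining 5 heads held 1.43 to 2.19 CPM. AlphaTry chose the heads and is left out of every sum, count and comparison below unless it is named. Because the heads were chosen on a measured level, differences between the gut-positive and the other heads are given as a description, with no test.

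The study set out to compare the gene expression of females whose mates came from populations evolved under different mating systems. Females of the IV base population of Drosophila melanogaster, all the same standard females, were mated at 3 days of age to males of evolved populations or kept as virgins, and were frozen at 4 days of age, which was 24 h after mating in mated groups. The males came from populations of 200 flies that had spent 182 generations either under enforced monogamy with 1 male to 1 female (M1, M2 and M3) or in polygamous groups of 5 females and 5 males (P1, P2 and P3), with 1 further generation of common rearing. Each library pooled 20 heads or 20 abdomens and a pool does not show how many of its 20 heads carried a transcript. The gut-positive heads were thus 2 of the 3 pools mated to M males and 1 of the 3 virgin pools. The other heads were M3, P1, P2, P3 and virgin pools 2 and 3. There were 18 libraries in all, 9 of heads and 9 of abdomens. The labels do not say whether an abdomen library and a head library of the same label came from the same females, or whether separate cultures supplied the virgin pools, so p-values here measure the spread between these pools.

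The fly midgut is the absorptive stretch of the digestive tract and lies in the thorax and abdomen. Its enterocytes secrete trypsins, Jonah proteases, carboxypeptidases, lipases, amylases, maltases and lysozymes into the lumen, and different stretches along its length make different members of these families. Enteroendocrine cells and progenitor cells are interspersed among the enterocytes, and a peritrophic matrix of chitin and mucin-like proteins separates food from the epithelium. Many of these enzymes are encoded by tandem arrays of similar genes.

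Depth ran from 40396031 to 64761633 counts in heads and from 41057456 to 56772245 in abdomens, so that 3 counts correspond to 0.0463 to 0.0743 CPM in a head. A share in CPM is relative to the whole library, and in pooled tissue fewer cells of a type and less RNA per cell cannot be told apart. All 9 libraries were heads by their markers. The rhodopsin gene ninaE, the main opsin of the outer photoreceptors, stood at 35158, 38420 and 40908 CPM in virgin 1, M1 and M2, against 40034 to 48490 CPM in the other heads, and the summed level of 13 eye genes was at most 232 CPM in an abdomen. These eye genes summed to 72402 to 74130 CPM in the gut-positive heads and 78354 to 87288 CPM in the other heads, and the groups overlapped after TMM normalisation. Genes of the eggshell, which is made in the ovary, summed to 16.6 to 22.4 CPM in the gut-positive heads and 19.3 to 26.4 CPM in the other heads, whereas abdomens held at least 2041 CPM.

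Of the listed gene groups, digestive genes set the gut-positive heads apart most often. Among 9571 genes of at least 1 CPM on average over the heads, 107 (1.12%) were at least 4-fold higher, meaning that the lowest gut-positive head stood at 4 or more times the highest of the other heads, and 0 (0%) were at least 4-fold lower. Of the 107 genes, 1 was alphaTry, 34 were members of 8 lists of digestive genes, 2 were in other lists and 70 were in no list. The digestive lists held 141 genes without alphaTry. Of these, 76 reached the 1 CPM minimum and 65 did not, and a member could reach it through the gut-positive heads alone. By list, 4 of 13 trypsin, 9 of 17 Jonah, 12 of 23 other serine protease and 16 of 21 carboxy- and aminopeptidase genes reached it. So did 12 of 20 carbohydrase, 6 of 20 lipase, 7 of 11 lysozyme and 10 of 16 peritrophic matrix genes. The remaining members could not be counted as 4-fold higher. The other heads and the gut-positive heads did not overlap, with the gut-positive heads higher, for 275 genes (2.87%), and with them lower for 509 (5.32%). That balance depended on scaling, and after TMM normalisation 389 genes were higher and 104 lower without overlap.

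**Figure D1:**
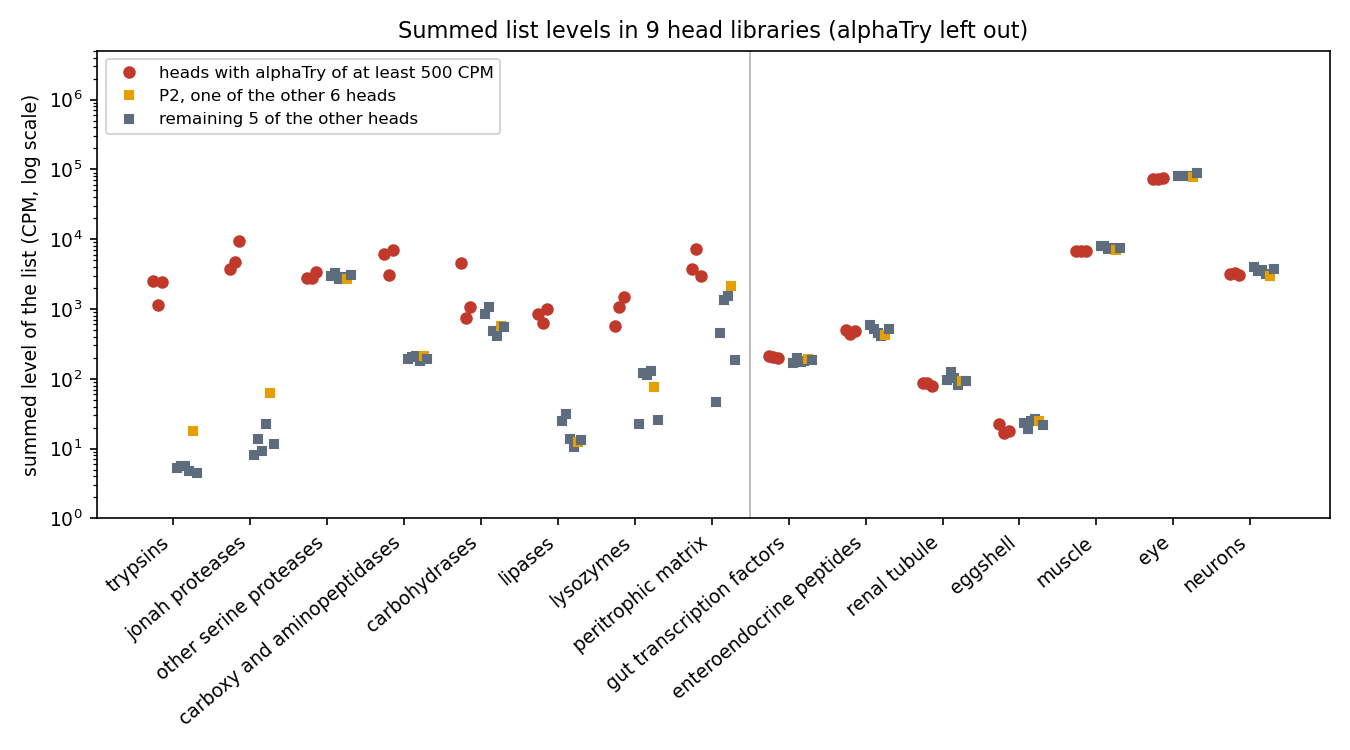
Summed level of each gene list in the 9 head libraries (CPM, log scale), with the 3 gut-positive heads as circles, P2 as a lighter square and the remaining 5 heads as dark squares; alphaTry is left out. The lists left of the line are digestive. Each gut-positive head lies above each other head for trypsins, Jonah proteases, carboxy- and aminopeptidases, lipases, lysozymes and the peritrophic matrix. CG14645 and Muc68D supply most of the peritrophic sum in the gut-positive heads. Lists right of the line, of other gut genes and of tissues, lie close together on this scale. Among them, each gut-positive head is above each other head for gut transcription factors, and below for muscle and eye. The muscle and eye sums overlapped after TMM normalisation.

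Transcripts of the proteases of the gut lumen were abundant in the gut-positive heads. The trypsin list, summed over 13 genes without alphaTry, stood at 2489, 1140 and 2439 CPM in virgin 1, M1 and M2, against 4.52 to 17.6 CPM in the other heads. The 17 Jonah protease genes, a family of chymotrypsin-like serine proteases, summed to 3711, 4713 and 9361 CPM in the same order of heads, against 8.17 to 62.6 CPM in the other heads. In both lists the highest of the other heads was P2. The 34 digestive genes that were at least 4-fold higher took 1.47% of all counts in virgin 1, 1.06% in M1 and 2.13% in M2, against 0.00188% to 0.0114% in the other heads and 0.171% to 0.984% in abdomens. These 34 genes were chosen for being high in the gut-positive heads, and digestive genes abundant in abdomens but not in these heads, such as zetaTry, Jon99Fi and mag, are not in the sum, so the shares of heads and abdomens do not compare digestive transcripts as a whole. The 2 sequencing runs of a library returned the same share, with run 2 at 0.988 to 1.00 times run 1 in the gut-positive heads.

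**Figure D2:**
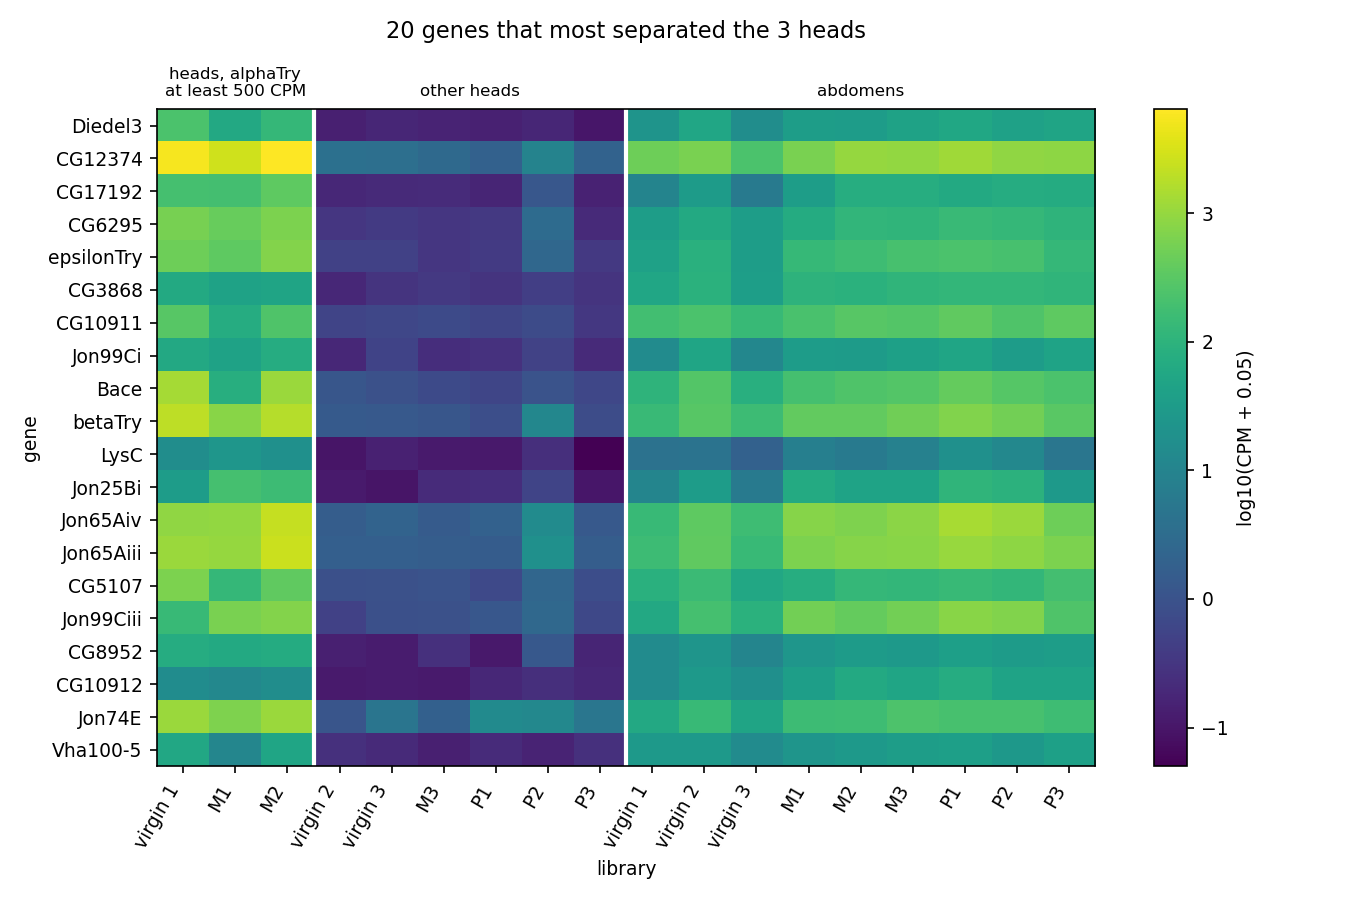
Level of the 20 genes with the largest gap between the gut-positive and the other heads (rows), among genes of at least 10 CPM in each gut-positive head, in each of the 18 libraries (columns), on a log10 scale of CPM + 0.05. Rows are bright in virgin 1, M1 and M2 and in abdomens and dark in the other 6 heads, and betaTry, Jon65Aiv and Jon65Aiii are lighter in P2 than in the other 5 of these.

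CG12374, a predicted zinc carboxypeptidase (FBgn0033774, 2R:12762113-12763825), was the most abundant in CPM of the 34 digestive genes at least 4-fold higher, in each gut-positive head. It held 5537, 2791 and 6429 CPM in virgin 1, M1 and M2, against 1.88 to 9.67 CPM (median 3.17) in the other heads, while the abdomens of the same labels held 485, 597 and 1018 CPM. By CPM per kilobase of exon it ranked 12th of all genes in the head of virgin 1, 19th in M1 and 9th in M2, and it alone supplied 37.6%, 26.3% and 30.2% of the summed CPM of the 34 genes. Of the 21 carboxy- and aminopeptidase genes, 4 were at least 4-fold higher. The membrane aminopeptidase-type genes of that list were uneven between the heads: CG31233 stood at 120, 5.62 and 120 CPM in virgin 1, M1 and M2, against 0.0743 to 0.357 CPM in the other heads.

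Trypsin genes did not all come along. BetaTry (FBgn0010357, 2R:11346325-11347395) had 1978, 788 and 1697 CPM in virgin 1, M1 and M2, against 0.724 to 11.3 CPM in the other heads. EpsilonTry (FBgn0010425) had 479, 340 and 727 CPM in these 3 heads, against 0.274 to 2.46 CPM in the others. KappaTry, at 22.4, 7.33 and 7.74 CPM against 0.0396 to 0.0864 CPM, completed the 3 of 13 trypsins past 4-fold. In contrast, zetaTry had 0.0219, 0.0455 and 0 CPM in virgin 1, M1 and M2, no higher than the 0.0198 to 0.206 CPM of the other heads, although the 3 abdomens of the same labels held 24.0, 36.4 and 30.1 CPM. LambdaTry was also low, with 0.197, 0.0227 and 0.247 CPM in the gut-positive heads, against 0 to 0.0991 CPM in the other heads and 26.8 to 32.7 CPM in those abdomens. The genes of both kinds sit side by side in a single array on 2R, between lambdaTry at 11336840 and iotaTry at 11357537. AlphaTry, betaTry, gammaTry, deltaTry, CG30025 and CG30031 are close copies, and gammaTry, CG30025 and CG30031 are listed at 0 in every library, so the split of reads among these copies is uncertain.

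The Jonah family split in the same way. Of its 17 genes, 9 were at least 4-fold higher in the gut-positive heads. Jon65Aiii (FBgn0035665, 3L:6050757-6051690) reached 1084, 1015 and 2533 CPM in virgin 1, M1 and M2, against 1.47 to 18.0 CPM in the other heads, and its neighbours Jon65Aiv and yip7 followed it. Jon65Aii and Jon65Ai, the next genes of that array, stayed at 0.0682 to 0.318 CPM in the gut-positive heads, against 0.0457 to 0.183 CPM in the other heads and 19.0 to 102 CPM in the abdomens of the same labels. Jon74E (FBgn0023197, 3L:17548077-17549127) had 1083, 662 and 1075 CPM in virgin 1, M1 and M2. It also stood at 12.3 CPM in P2 and 13.8 CPM in P1, against 1.05 to 4.98 CPM in the remaining 4 heads. On chromosome 3R, Jon99Ci, Jon99Cii and Jon99Ciii were raised, with Jon99Ciii at 136, 598 and 719 CPM against 0.433 to 2.61 CPM in the other heads. Jon99Fi and Jon99Fii were not, with Jon99Fi at 0.526, 0.227 and 0.386 CPM against 0.367 to 0.753 CPM in the other heads, although the abdomens held 86.4, 310 and 203 CPM. Jon65Aiii and Jon65Aiv, and the 3 Jon99C genes, are similar copies whose reads may be divided inexactly.

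Among 23 other serine proteases, 6 were at least 4-fold higher. CG7542 had 405, 18.6 and 274 CPM in virgin 1, M1 and M2, against 0.190 to 0.540 CPM in the other heads. The most abundant members of the list in heads did not follow the gut signal at all. CG3088 stood at 1014, 932 and 1197 CPM in the gut-positive heads and 941 to 1461 CPM in the other heads, but at 1.09 to 1.49 CPM in the abdomens of the same labels, and CG9676 and CG8329 had the same pattern. These 3 genes were abundant in all 9 heads, and the sum of the list, at 2793, 2780 and 3356 CPM in virgin 1, M1 and M2, overlapped the 2715 to 3267 CPM of the other heads.

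Lipases and lysozymes were raised in few genes at high levels. Of 20 lipase genes, 5 were at least 4-fold higher, led by the predicted lipases CG6295 (FBgn0039471, 3R:27005899-27007055) and CG17192 (FBgn0039472, 3R:27017180-27018287). CG6295 had 581, 422 and 635 CPM in virgin 1, M1 and M2, against 0.155 to 2.96 CPM in the other heads. CG17192 had 197, 190 and 342 CPM, against 0.103 to 1.19 CPM. Their neighbour CG6277, in the same array, stayed at 0.0219, 0.0227 and 0.0618 CPM, and mag, a secreted lipase of the gut that takes part in sterol and fat handling, stood at 1.07, 0.250 and 3.13 CPM although the abdomens held 72.5, 143 and 138 CPM. Of 11 lysozyme genes 4 were at least 4-fold higher, and LysD (FBgn0004427, 3L:1210717-1211196) led them with 460, 700 and 1015 CPM in the gut-positive heads. The other heads ranged over 0.707 to 20.5 CPM for LysD. LysB, LysC, LysD and LysE are near-identical, and their separate counts are uncertain.

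Carbohydrate-digesting enzymes separated the 3 gut-positive heads from each other. Of 20 genes, 2 were at least 4-fold higher, the maltase genes Mal-A6 and Mal-A8. Mal-A1 (FBgn0002570, 2R:8449664-8451904), also a maltase gene, had 1110 CPM in virgin 1 but 24.5 CPM in M1 and 34.7 CPM in M2, against 5.73 to 7.98 CPM in the other heads. Mal-A6 had 537, 17.4 and 16.2 CPM, against 1.80 to 2.74 CPM. Mal-A8 had 338, 2.12 and 4.69 CPM, against 0.0396 to 0.114 CPM. The abdomens of virgin 1, M1 and M2 held 129, 20.3 and 69.3 CPM of Mal-A1 and 52.6, 9.19 and 15.3 CPM of Mal-A6, so virgin 1 was the highest there too, while the order of M1 and M2 differed between heads and abdomens for Mal-A6. Over all abdomens, Mal-A6 held 52.4 to 85.9 CPM in virgin and 8.81 to 39.8 CPM in mated ones. Mal-A8 held 28.7 to 61.0 CPM in virgin and 2.80 to 21.7 CPM in mated abdomens. Virgin 1 was the only virgin pool of the 3 gut-positive heads, so mating status and other differences between these pools cannot be told apart. The amylase gene Amy-p (FBgn0000079, 2R:17118636-17120303), which digests starch, had 309, 192 and 86.7 CPM, with 42.9 CPM in P2 and 0.575 to 1.68 CPM in the remaining 5 heads. Amy-p and Amy-d are near-identical. The alpha-glucosidase gene tobi had 1171, 158 and 484 CPM in the gut-positive heads and 102 to 707 CPM in the other heads, so the groups overlapped.

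Of the 16 peritrophic matrix genes, 1 was at least 4-fold higher. This gene was Muc68E, with 26.7, 10.5 and 17.9 CPM in virgin 1, M1 and M2, against 0 to 0.216 CPM in the other heads. Peritrophin-15a, a chitin-binding protein gene, was higher without overlap, at 12.1, 40.2 and 13.3 CPM against 0.198 to 4.53 CPM. CG14645 and Muc68D were the most abundant genes of this list in the gut-positive heads and supplied most of its sum, for example 4373 and 2860 of 7334 CPM in M1, and they also varied widely among the other heads, over 0.707 to 1151 and 0.548 to 916 CPM. Genes of absorption gave 2 of 12 past 4-fold. Mex1, a midgut-specific gene, had 12.7, 1.21 and 6.32 CPM, against 0.0684 to 0.216 CPM. MtnC, a metallothionein that binds metals, had 10.3, 1.36 and 1.20 CPM, against 0 to 0.0216 CPM.

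Regulators and markers of other gut cells showed smaller gaps or none. Of 9 gut transcription factors, 0 were past 4-fold and 3 were higher without overlap, namely GATAe, nub and exex. GATAe, the GATA factor of the midgut, stood at 7.76, 5.14 and 10.5 CPM in virgin 1, M1 and M2, against 0.0456 to 1.36 CPM in the other heads, and P2 was again the highest of these. Exex, a homeobox gene also expressed in motor neurons, had 12.2, 6.69 and 11.2 CPM, against 1.62 to 3.65 CPM. Cad, which in the fly marks the hindgut and posterior midgut, had 0.241, 0.296 and 0.293 CPM, within the 0.205 to 0.497 CPM of the other heads. In abdomens, which include ovaries, cad held 164 to 209 CPM in the same labels. None of the 4 progenitor genes, 9 enteroendocrine peptide genes and 6 gut immunity genes passed 4-fold, and the enteroendocrine list is largely shared with the brain, with Tk at 41.3, 32.2 and 38.5 CPM against 32.3 to 43.9 CPM. Lists of the salivary gland, renal tubule, eggshell, germline, yolk, spermatheca, muscle, trunk homeotic genes, blood cells, eye and neurons had 0 members past 4-fold. Genes below 1 CPM on average over the heads could not pass. That minimum was reached by 0 of 5 spermatheca, 1 of 4 trunk homeotic and 4 of 13 renal tubule genes. It was also reached by 6 of 12 germline, 8 of 21 eggshell, 2 of 4 progenitor and 4 of 6 gut immunity genes. All members of the salivary gland, yolk, muscle, blood cell, eye and neuron lists reached it. Of the 107 genes at least 4-fold higher, 70 were in no list. Among listed genes, the label of midgut transcripts describes mainly a subset of digestive enzymes. With them, 3 of 9 gut transcription factors and 5 of 12 absorption genes were higher without overlap, GATAe and mex1 included. Such genes could reach the 1 CPM minimum through the gut-positive heads alone. Renal tubule genes overlapped in sum, at 79.6 to 86.9 CPM in the gut-positive heads and 82.0 to 124 CPM in the other heads.

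Genes outside the digestive lists accompanied the enzymes. Among genes of at least 10 CPM in each gut-positive head, the gene with the largest gap between the groups was Diedel3 (FBgn0085358, X:19050442-19053160), of the Diedel family of small secreted proteins. It had 231, 59.7 and 125 CPM in virgin 1, M1 and M2, against 0.0517 to 0.130 CPM in the other heads, a ratio of 333 between the lowest and the highest head with 0.05 CPM added to both. Bace, an aspartic protease gene (FBgn0032049, 2L:8494893-8496307), had 1338, 80.7 and 1102 CPM, against 0.535 to 1.10 CPM. Vha100-5, a subunit of the proton-pumping V-ATPase, had 58.8, 10.9 and 50.0 CPM, against 0.0914 to 0.207 CPM. In both genes M1 lay far below the other 2 gut-positive heads. Also among the 20 genes with the largest gap under that minimum were CG5107, CG8952, CG10911, CG10912 and CG3868. In the opposite direction the gaps were small. Hsc70-2, a heat shock cognate gene, had 56.7, 53.8 and 58.0 CPM in the gut-positive heads and 64.9 to 75.1 CPM in the other heads, and the neighbouring ranks were held by CG44837, Sox21b, ear and CG45263.

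The digestive genes of the gut-positive heads did not keep the proportions they had in abdomens. The level in each head was taken as a percent of the level in the abdomen of the same label, for digestive genes of at least 10 CPM in that abdomen. The median was 68.6% over 70 genes in virgin 1, 9.43% over 71 in M1 and 29.0% over 81 in M2, against 0.245% to 0.999% in the other heads. These medians hide a spread of more than 3 orders of magnitude within each head. In virgin 1 the quartiles were 2.67% and 583%, in M1 0.285% and 130%, and in M2 1.51% and 230%. CPM values of heads and abdomens share no common amount of tissue, since an abdomen library also holds ovary RNA, so the percents compare genes within a head and are not amounts of gut tissue.

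**Figure D3:**
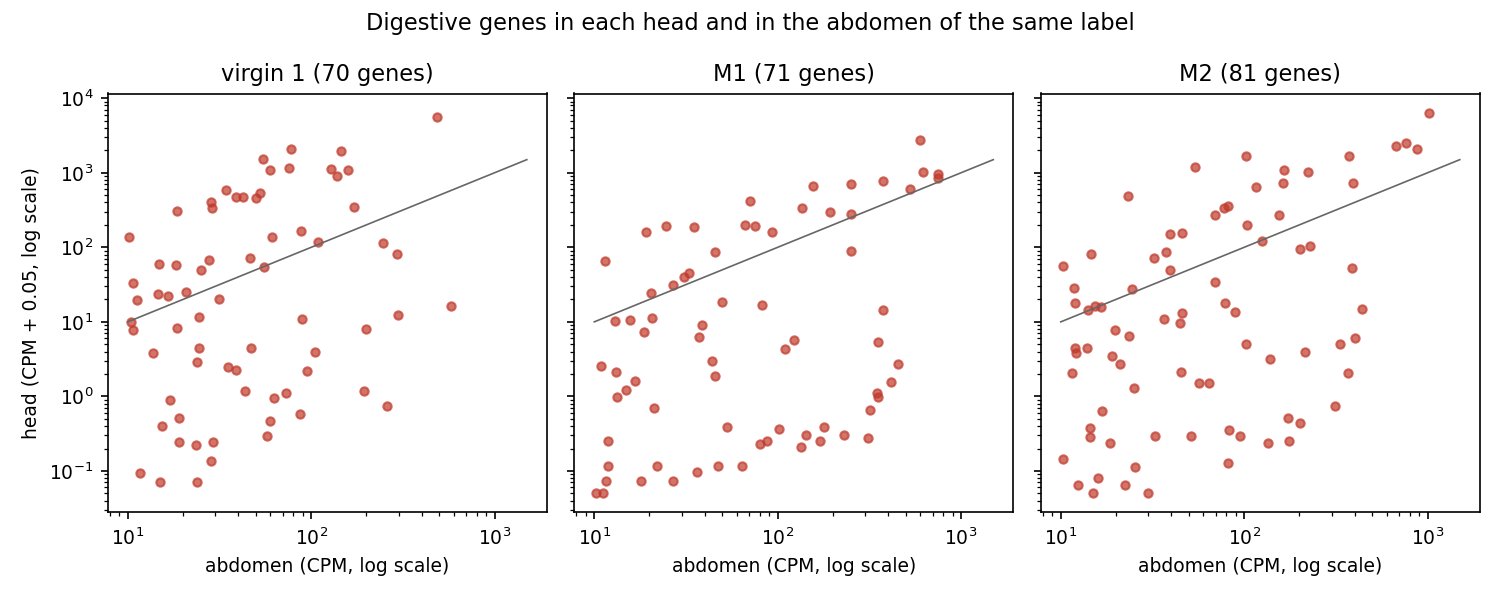
Level of digestive genes in each gut-positive head (CPM + 0.05, log scale) against the abdomen of the same label (CPM, log scale), 1 point per gene with at least 10 CPM in that abdomen; the line marks equal levels. In each panel 1 group of genes lies above the line and another lies far below it, with 32, 24 and 30 genes above 100% and 26, 36 and 32 genes below 10% in virgin 1, M1 and M2.

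Of 61 genes with a percent in all 3 heads, 17 stood above 100% in all 3, 24 stood below 10% in all 3, 11 of these below 1%, and 20 did neither. Of the 24 low genes, 19 overlapped in level between the gut-positive and the other heads. The 17 high genes were betaTry, epsilonTry, Jon25Bi, Jon65Aiii, Jon65Aiv, Jon74E, Jon99Ci, Jon99Cii, Jon99Ciii, yip7, CG12374, Amy-p, Mal-B2, tobi, CG6295, LysD and CG16799. Of these, 13 were among the genes at least 4-fold higher than in the other heads, while Mal-B2, tobi and CG16799 were also expressed in the other heads and Amy-p in P2. The 24 low genes included the trypsins zetaTry, thetaTry, iotaTry and lambdaTry, the Jonah genes Jon25Biii, Jon65Ai, Jon65Aii, Jon99Fi and Jon99Fii, and the lysosomal-type mannosidases LManIII, LManV and LManVI. CG12374 stood at 1142%, 467% and 631% of the abdomen in virgin 1, M1 and M2. Jon74E stood at 1814%, 423% and 654%, and the lipase gene CG6295 at 1701%, 596% and 549%. The order of the heads was not fixed, since Amy-p stood at 1675%, 781% and 230%. At the other end, CG17571, a serine protease, stood at 0.420%, 0.120% and 0.137%, and Jon99Fii stood at 0.310%, 0.119% and 0.0941%. CG11911, also a serine protease, stood at 0.702%, 0.109% and 0.114%, zetaTry at 0.0914%, 0.125% and 0%, and LManIII at 0.374%, 0% and 0%.

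The rank order of the percents was similar in virgin 1 and M1 (Spearman's rho 0.936 over 61 genes), virgin 1 and M2 (0.925 over 68) and M1 and M2 (0.920 over 70), where each percent is divided by an abdomen level. The levels themselves had a rho of 0.728, 0.773 and 0.885 between these pairs of heads, over 76 genes. These are correlations across genes, which are not independent replicates, and the percents share the filter on abdomen levels. The 76 genes include some abundant in all heads, such as CG3088, and others could reach their 1 CPM minimum through the gut-positive heads alone. Over the 106 genes at least 4-fold higher, M1 had the lowest level of the 3 for 84, virgin 1 the highest for 70 and M2 for 30. The highest head exceeded the lowest by a median of 4.08 times. Kaz-m1, a Kazal-type protease inhibitor gene, was the most even at 1.05 times, with 18.6, 18.4 and 17.7 CPM in virgin 1, M1 and M2. Mal-A8 was the least even at 160 times. The alkaline phosphatase genes Alp9 and Alp10 were low in M1 alone, with Alp9 at 138, 2.53 and 196 CPM in virgin 1, M1 and M2 and Alp10 at 140, 1.55 and 165 CPM. Jon25Bii was low in virgin 1 instead, at 2.83, 87.7 and 151 CPM, and its abdomens held 3.04, 45.8 and 39.2 CPM. Over all abdomens it held 1.76 to 12.2 CPM in virgin and 20.4 to 84.4 CPM in mated ones, and virgin 1 was the only virgin pool among these heads.

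In abdomens, which the choice of heads did not use, a difference between the same labels was not detected. Trypsins without alphaTry and Jonah proteases summed to 3514 ± 2021 CPM in abdomens virgin 1, M1 and M2 and 4506 ± 2547 CPM in the other 6 abdomens (SD, n = 3 and 6). The difference of -992 CPM had p = 0.595 in an exact 2-sided permutation test over 84 splits, which can give no p below 0.0119. Virgin abdomens held 1114 to 2560 CPM of this sum and mated abdomens 3505 to 7847 CPM. The splits mixed virgin with mated abdomens, so the SDs and this p also measure that gap. The test therefore cannot show that the labels are alike. Without abdomen virgin 1 the difference was 171 CPM (exact permutation p = 0.893), where the other group still held 2 virgin abdomens. Within mated abdomens alone it was -1163 CPM (exact permutation p = 0.467 over 15 splits, too few for any p below 0.05).

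P2, the highest of the other heads in summed trypsins and Jonah proteases, stood out most in other genes. Genes were picked here after their values were seen, as those of at least 10 CPM in P2 and at least 5 times the highest of the remaining 5 heads, and 15 genes qualified, alphaTry among them. CG14125 stood at 106 CPM in P2, against at most 1.98 CPM in the remaining 5 heads, and at 426, 369 and 213 CPM in the gut-positive heads. Its level in P2 was 31.7% of the mean of the gut-positive heads. CG3819 stood at 26.9% of that mean and Amy-p at 21.9%. Jon65Aiii stood at 1.16% of the mean and betaTry at 0.759%, and the median over the 106 genes was 1.25% in P2. Taking for each gene the highest of the remaining 5 heads, the median was 1.07%. That value sets P2 alone against the highest of 5 heads, so it does not show P2 to be like any 1 of them. Summed, the 106 genes took 0.0155% of all counts in P2, against 0.00301% to 0.00735% in the remaining 5 heads. Mur18B, a mucin-related gene, was higher in P2, at 12.3 CPM, than in any gut-positive head, where it ranged over 0.701 to 1.99 CPM.

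**Figure D4:**
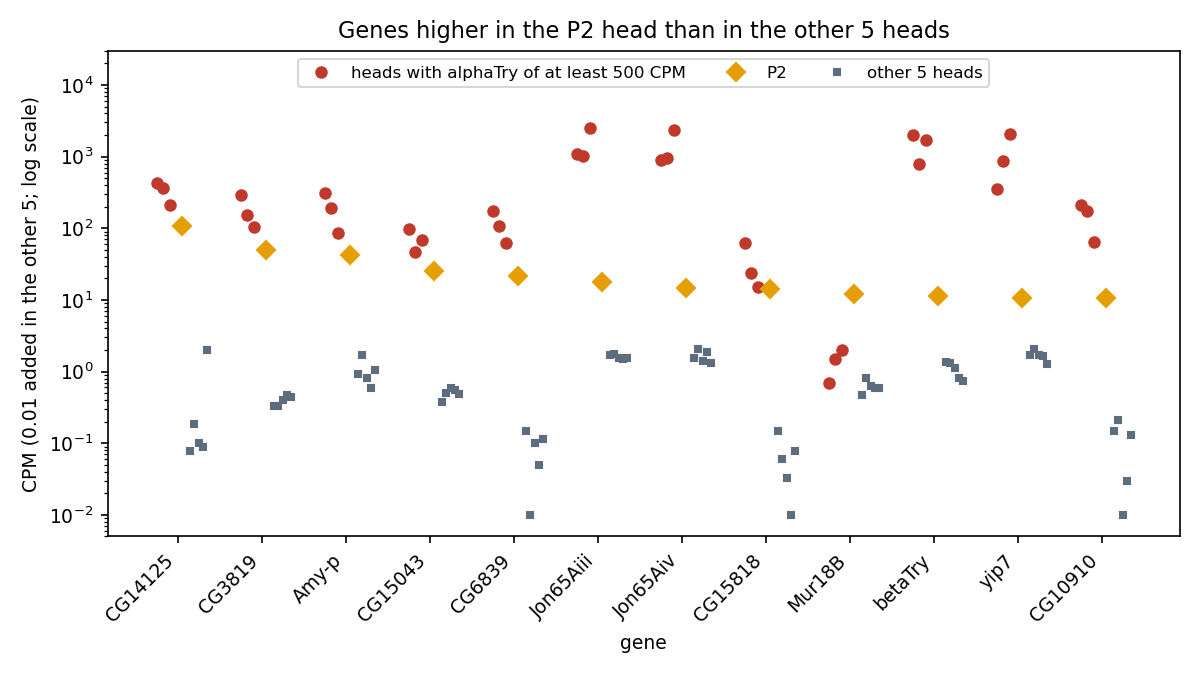
Level (CPM, log scale) of the 12 most abundant of the genes picked for being high in P2, alphaTry left out, in the 3 gut-positive heads (circles), P2 (diamond) and the remaining 5 heads (squares, 0.01 added). CG14125, CG3819 and Amy-p in P2 approach the gut-positive heads, while betaTry, yip7, Jon65Aiii and Jon65Aiv in P2 stay far below them.

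The gut-positive heads fall on both sides of the comparison of mated with virgin heads, and on the M side alone of that of P with M heads. With M1 and M2 among 3 M heads, virgin 1 among 3 virgin heads and none among 3 P heads, they enter both head comparisons. These were tested by quasi-likelihood in edgeR over 10886 genes, with p-values adjusted by the method of Benjamini and Hochberg. Between P and M heads, 0 genes (0%) passed an adjusted p of 0.05, where 864 had an unadjusted p below 0.05 and DESeq2 called 15. The 34 digestive genes at least 4-fold higher were chosen on these same heads, M1 and M2 among them, so their lower level in P than in M heads was fixed by that choice and is a description only. Their fitted log2 differences in P minus M ran from -11.17 to -2.55, with standard errors of 1.67 to 4.86. Jon25Bii, a member of these 34, had 0.0198, 0.389 and 0.0345 CPM in P1, P2 and P3, and 87.7, 151 and 0.0229 CPM in M1, M2 and M3. Its P minus M difference was -9.19 ± 2.95 (standard error), and it was 2.57 without the gut-positive heads on which it was chosen. CG12374, also a member of the 34, differed by -9.44 ± 4.19. The 3 digestive genes with the smallest p-values were head-expressed ones with small differences, namely CG16799 at -0.43 ± 0.11, CG31445 at -0.25 ± 0.07 and CG8539 at -0.35 ± 0.11. These did not pass (edgeR adjusted p = 0.614). The M group overlapped the P group in Jon25Bii and CG12374, because M3 was among the low heads.

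Between mated and virgin heads, 241 genes (2.21%) passed in edgeR, 94 higher (0.863%) and 147 lower (1.35%) in mated heads. Leaving out virgin 3, virgin 1 or P1 left 77, 79 or 89 calls, and leaving out P2, M1 or M2 left 136, 137 or 153. Of 95 digestive genes tested, 3 were called, each lower in mated heads, namely CG18302, CG7367 and CG11529, and none of these belonged to the gut signal. CG18302, a predicted lipase, had 8.42, 8.96, 11.0, 8.24, 6.50 and 10.95 CPM in M1, M2, M3, P1, P2 and P3, and 20.5, 22.2 and 27.8 CPM in virgin heads 1, 2 and 3. Its log2 difference was -1.34 ± 0.14 (adjusted p = 0.00299, edgeR), the groups did not overlap, and it was -1.35 without the gut-positive heads (adjusted p = 0.105). CG7367 differed by -1.51 ± 0.21 (adjusted p = 0.00738, edgeR) and CG11529 by -0.70 ± 0.15 (adjusted p = 0.0424, edgeR), while CG7252 did not pass at -0.97 ± 0.24 (adjusted p = 0.0723, edgeR). The call of CG11529 was lost without any single head other than M3 and P3 (adjusted p 0.0701 to 0.181). The 34 genes at least 4-fold higher in the gut-positive heads were chosen on the same head values, so their fitted differences in mated minus virgin, which ran from -8.12 to 1.80, are also a description only.

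The sign of the digestive median changed with the gut-positive libraries. These were chosen for a midgut trypsin, so a shift of this kind was built into the choice, and the values are a description only. The set of digestive genes tested also differed between the settings. Over the digestive genes tested, which could enter the test through the gut-positive heads alone, the median log2 difference in mated minus virgin was -0.82 with all 9 heads (68 of 95 below 0), 1.23 without virgin 1 (20 of 97 below 0) and 0.15 without the 3 gut-positive heads (32 of 83 below 0), where the median over all genes was -0.0119, -0.00316 and -0.00679. In P minus M it was -2.55 with all heads (85 of 95 below 0) and 0.16 without the gut-positive heads (31 of 83 below 0). Without the 3 heads, which leaves 2 virgin heads, 1 M head and 3 P heads, 0 genes passed in mated minus virgin (961 at an unadjusted p below 0.05) and 1 passed in P minus M. With the digestive genes left out in place of the libraries, 246 genes passed in mated minus virgin.

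**Figure D5:**
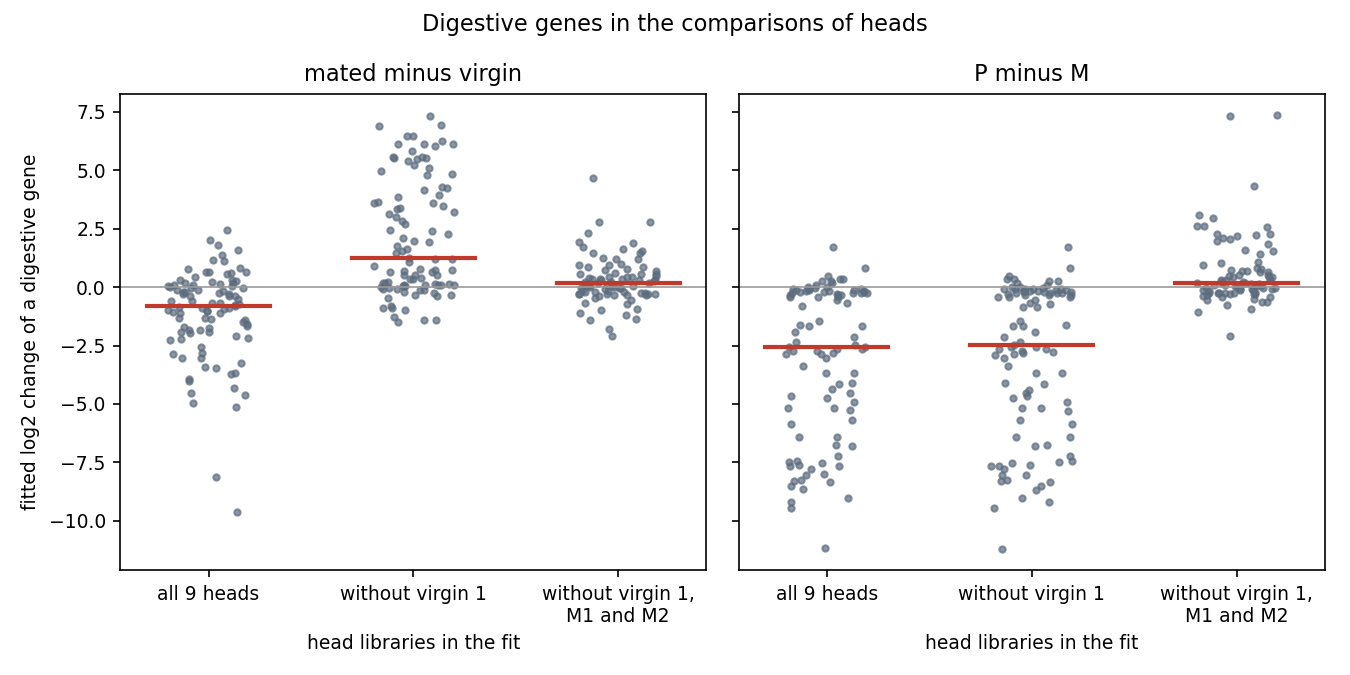
Fitted log2 difference of each digestive gene tested (points) and their median (bar) in mated minus virgin (left) and P minus M (right), with all 9 heads, without virgin 1 and without the 3 gut-positive heads. The median in mated minus virgin is -0.82, 1.23 and 0.15 in this order of settings, and in P minus M it is -2.55 with all heads and 0.16 without the gut-positive heads. These shifts are a description only, since the heads were chosen for a midgut trypsin.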

How the data were processed

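RNA was sequenced in 18 libraries of fly heads and abdomens, each in 2 runs. The submitters' processing notes name Trimmomatic 0.33, TopHat2 2.1.0, HTSeq 0.6.1 and the BDGP6 assembly. The deposited values are whole-number counts per gene (17552 genes), which the authors had not normalised. Libraries were stranded per the labels, but the strand setting of the counting is not given in the sources used here, nor is the annotation release, so counts of antisense RNAs, overlapping genes and near-identical copies are uncertain. Runs were summed per library, since they are repeat sequencing of the same library. CPM was computed on total counts. Symbols, coordinates and exon lengths came from the Ensembl annotation of BDGP6, in which 17387 identifiers were found.

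The heads, the 24 gene lists, with 287 entries, and the settings were chosen with earlier results of these data known. Named genes were the 20 with the largest gap between gut-positive and other heads at a minimum of 10 CPM in each gut-positive head, up to 4 abundant members a list, the 5 with the largest gap the other way at the same minimum in each other head, called digestive genes or the 4 with the smallest p in a comparison, and the 5 highest and lowest by percent of the abdomen. Further genes were named after their values were seen. Head counts were tested in R 4.3.3 with edgeR 4.0.16 (TMM, filterByExpr, robust quasi-likelihood, common biological coefficient of variation 0.272, 6 residual degrees of freedom), after a check on simulated data, with DESeq2 1.42.0 as an alternative. Each fit held the 3 groups virgin, M and P, and mated was the mean of M and P.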

Additional observations from a re-analysis of the deposited data

Results flagged for a closer look

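Among the other 6 heads, 1 library lay far from the rest in 14 of 70 sums and genes examined, where chance alone marks about 1 in 20, and the values are not independent of each other. In 13 of the 14 that library was P2. It held 17.6 CPM in summed trypsins and 62.6 CPM in summed Jonah proteases. By gene it held 9.67 CPM of CG12374, 1.19 CPM of CG17192, 2.96 CPM of CG6295, 2.46 CPM of epsilonTry and 11.3 CPM of betaTry. The Jonah genes Jon25Bi, Jon65Aiv, Jon65Aiii and Jon99Ciii stood at 0.497, 14.8, 18.0 and 2.61 CPM in P2. CG5107 stood at 2.33 CPM and CG8952 at 1.21 CPM there. The remaining case was P3, in which the summed eye genes reached 87288 CPM.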

How the results depend on the processing

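The count of 107 genes at least 4-fold higher became 40 with a minimum of 10 CPM and 91 to 137 on leaving out each head, and the count of 0 lower genes became 7 with no minimum and was 0 on leaving out each head. The median percent of the abdomen in virgin 1 was 36.7% against the mean of all 9 abdomens, 105% with a minimum of 1 CPM in the abdomen and 99.7% with a minimum of 50 CPM, and that in M1 was 20.04% and 3.93% with these minimums. The abdomen difference ranged from -1670 to 171 CPM on leaving out each abdomen, reversed at 171 CPM without abdomen virgin 1, and was -1163 CPM in mated abdomens alone. In mated minus virgin the 241 calls became 635 with DESeq2 (6 digestive), 0 without the gut-positive heads (0 digestive) and 77 to 311 on leaving out each head (2 to 3 digestive). In P minus M the 0 calls became 15 with DESeq2 (4 digestive), 1 without the gut-positive heads and 0 to 2 on leaving out each head (0 digestive). Jon25Bii, which was chosen on the gut-positive heads, had a P minus M difference of 2.57 without them. Causes of these changes were not tested, and a fit with libraries or genes left out also held fewer of them. Replicate numbers are shared by the groups, but same-numbered heads did not deviate together in every pair (r from -0.51 to 0.69), so the numbers were not taken as pairs. With a replicate block 124 genes were called in mated minus virgin (3 digestive) and 0 in P minus M. With 20 heads a pool and 3 pools a group, levels near 0.05 CPM rest on about 3 counts.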

Other observations

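A few listed genes varied widely among the other heads, in which alphaTry stood at 1.43 to 18.9 CPM. CG14645, a chitin-binding-type gene of the peritrophic list, stood at 0.707, 233, 820, 992, 1151 and 112 CPM in virgin 2, virgin 3, M3, P1, P2 and P3. Muc68D, a mucin-like gene, stood at 0.548, 149, 504, 502, 916 and 39.3 CPM in the same libraries. P2, the highest of these libraries in alphaTry, was the highest in both genes. Virgin 2, next in alphaTry at 2.19 CPM, was the lowest in both. LysP, a lysozyme gene known from salivary glands, stood at 0.0684 CPM in virgin 2 and 0.431 CPM in P3, and at 77.9 CPM in virgin 3 and 69.1 CPM in M3. The 3 genes were lowest in virgin 2 and next lowest in P3, both of which also had low LysD at 0.707 CPM. In virgin 1, M1 and M2, LysP held 22.2, 58.5 and 14.3 CPM, within the range of the other heads, whereas CG14645 held 2070, 4373 and 1673 CPM and Muc68D 1543, 2860 and 1190 CPM, above it.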
